A study of Canis lupus familiaris with 32 samples.

Results

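Skin taken 24 h after a house dust mite patch was compared with control skin of the same 8 dogs, taken 6 h after a mineral oil patch. The comparison rests on 16 of the 32 biopsies of the series, 8 per group, chosen by their labels and paired by dog. All were Maltese-beagle atopic dogs (5 males and 3 females, aged 5.5 to 10.5 years) that had been sensitized through the skin to Dermatophagoides farinae. They had been picked because earlier patches had given acute lesions, and both groups share this selection. Patches lay on the lateral thorax, and each array holds the RNA of 1 whole-skin biopsy. The other 16 biopsies, taken 6 h and 48 h after the mite patch, entered the same model. No control was taken at 24 h, so the allergen and the time since patching cannot be told apart.

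Values are log2 array signals, and a change is the mean within-dog log2 difference, 24 h minus control, with its standard error (SE). A change of 1 is a doubling. A gene rose or fell where limma's adjusted p was 0.05 or less over 42860 probe sets. Gene names come from the authors' deposited table, in which 10512 of 17107 genes could be linked to 1 probe set by equal values, and about 11.5 of these names are expected to be wrong. Counts below cover linked genes unless given from the authors' table, and list members that were not linked are given only from it. Across that table, without names turned into dates, 494 genes were up and 763 down at 24 h (authors' adjusted p up to 0.05). Counts of list members from that table stand against these numbers.

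Atopic dermatitis is an itching skin disease of dogs and humans in which allergen crossing a weak epidermal barrier meets a type 2 immune response. Epithelial alarmins and dendritic cells favour T helper 2 cells, whose cytokines IL4, IL5 and IL13 act on eosinophils, keratinocytes, fibroblasts and nerves. Chemokines such as CCL17 and CCL24 draw T helper 2 cells and eosinophils into the skin, and acute phase proteins and interferon-induced genes mark the inflammation around them.

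The biopsies carried skin genes. The basal keratin KRT5 read 10.84 to 11.66 in control skin and 10.83 to 11.59 at 24 h, and the suprabasal keratin KRT10 read 11.58 to 12.61 and 10.87 to 12.99. They also carried unequal amounts of skeletal muscle RNA. The mean of 11 muscle markers ran from 3.81 to 8.05 (median 4.78) in control skin and from 3.25 to 7.48 (median 3.72) at 24 h. The arrays split into 9 above 6 and 23 below it, and the control arrays of dogs 4 and 7 and the 24 h arrays of dogs 2 and 4 were among the 9. The muscle mean was lower at 24 h in 7 of 8 dogs (difference -0.76, exact sign-change permutation, 2-sided p = 0.367, adjusted p = 0.459 over 5 array measures, smallest possible 0.0078). The array median was lower at 24 h in 7 of 8 dogs as well, by 0.052 on average (exact p = 0.0234, adjusted p = 0.117), and stood lowest on the 24 h array of dog 5, at 4.64 against 4.84 to 4.90 on the control arrays. The muscle mean and the array median were thus both lower on average at 24 h, the direction of the falls below. Their part in the falls was not tested beyond the alternatives given.

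At 24 h the skin differed from the control at 3509 of 42860 probe sets, 8.19% of those tested. Of these, 1272 rose (2.97%) and 2237 fell (5.22%), with 114 rises and 83 falls of at least 2-fold. Among linked genes 382 rose (3.63%) and 759 fell (7.22%), 193 and 474 of them in all 8 dogs. Counts of linked list members below stand against these shares. The median change of all linked genes was -0.03. Rises made up 36.2% of the calls, and 56.9% once each array was centred on its own median, so the balance of rises and falls depended on that scaling. The groups did not overlap for 35 linked genes above the control (0.333%) and 108 below it (1.03%).

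**Figure D1:**
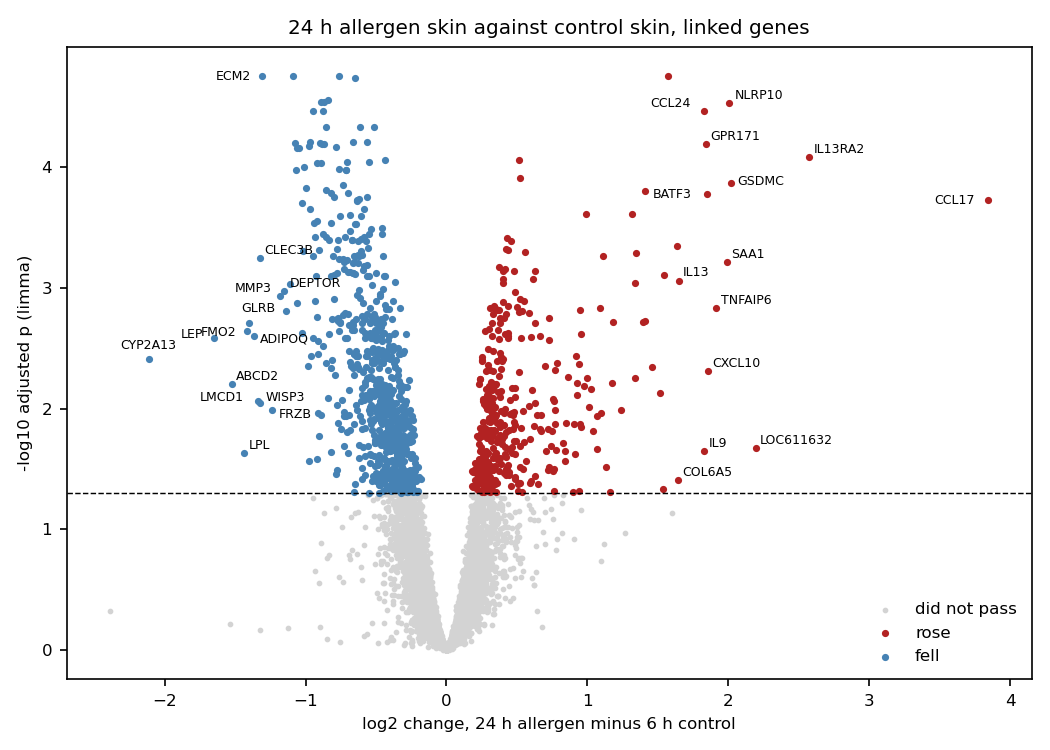
The log2 change of each of the 10512 linked genes (x axis, 24 h allergen minus 6 h control) against -log10 of limma's adjusted p (y axis), with the threshold of 0.05 as a dashed line and the 14 largest named rises and falls labelled. CCL17, at 3.84, lies farthest to the right, and CYP2A13, at -2.11, is the lowest of the genes that passed.

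Type 2 genes gave the 2 largest rises. Of 19 linked type 2 cytokines, chemokines and receptors, 7 rose and none fell (median change 0.34, against -0.03 for all linked genes). CCL17, a chemokine that attracts T helper 2 cells through CCR4, read 3.77, 4.11 and 4.30 (lowest, median and highest of 8 dogs) in control skin and 4.68, 7.52 and 10.37 at 24 h. Every 24 h biopsy was above every control, and the change was 3.84 (SE 0.58, adjusted p = 0.000189). CCL24, an eosinophil attractant, read 5.29, 5.69 and 7.09 in control skin and 6.73, 7.60 and 9.26 at 24 h. It was higher in each of the 8 dogs although the groups overlapped, with a change of 1.83 (SE 0.23, adjusted p = 3.45e-05), and the spread between dogs was narrow, from 1.22 to 3.00.

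Among the cytokines themselves, IL13, which drives allergic change in epithelium, read 3.44, 3.76 and 3.99 in control skin and 4.17, 5.38 and 7.01 at 24 h. The groups did not overlap, and the change was 1.65 (SE 0.29, adjusted p = 0.000873). IL13RA2, the decoy receptor that binds IL13, read 3.66, 4.42 and 4.91 in control skin and 4.52, 7.10 and 9.13 at 24 h, a change of 2.58 (SE 0.35, adjusted p = 8.23e-05). It was higher in 7 of 8 dogs, and dog 8, with the highest control and the lowest 24 h value, went the other way. IL9, a growth factor for mast cells and T cells, moved from 2.41, 2.63 and 2.96 to 2.85, 4.37 and 6.73 (change 1.83, SE 0.50, adjusted p = 0.0225), and its call was lost without dog 2 (adjusted p = 0.0952), dog 5 (adjusted p = 0.079) or dog 6 (adjusted p = 0.0584). IL5, the eosinophil growth factor, rose by 0.45 (SE 0.11, adjusted p = 0.0111), in 8 of 8 dogs. POSTN, periostin, a matrix protein induced by IL13, rose by 0.90 (SE 0.28, adjusted p = 0.0491) and was named after its value was seen. It lost its call without any 1 of dogs 1, 2, 3, 5, 6 and 7 (adjusted p 0.0543 to 0.162).

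Other members of the list did not pass. IL4, the founding T helper 2 cytokine, was higher in 8 of 8 dogs, from 2.14 to 2.44 in control skin and 2.30 to 2.95 at 24 h (change 0.38, SE 0.14, adjusted p = 0.0807). IL33, an epithelial alarmin, was higher in 7 of 8 (change 0.76, SE 0.24, adjusted p = 0.0517). IL4, IL5, IL9, IL13, IL13RA2 and CCL17, and also CD3D, GPR171, CD209, GSDMC, NLRP10, COL6A5, LOC611632 and MMP3 below, had control medians under the mean control array median of 4.88. IFNG, IL17A, IL22 and OSM, given below, read under 4.88 in every biopsy of both groups. The files give no level of background, which leaves the size of a change from such dim signals uncertain. A miss for such a gene does not show that it did not respond. In whole biopsies more cells of a type and more RNA per cell cannot be told apart.

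**Figure D2:**
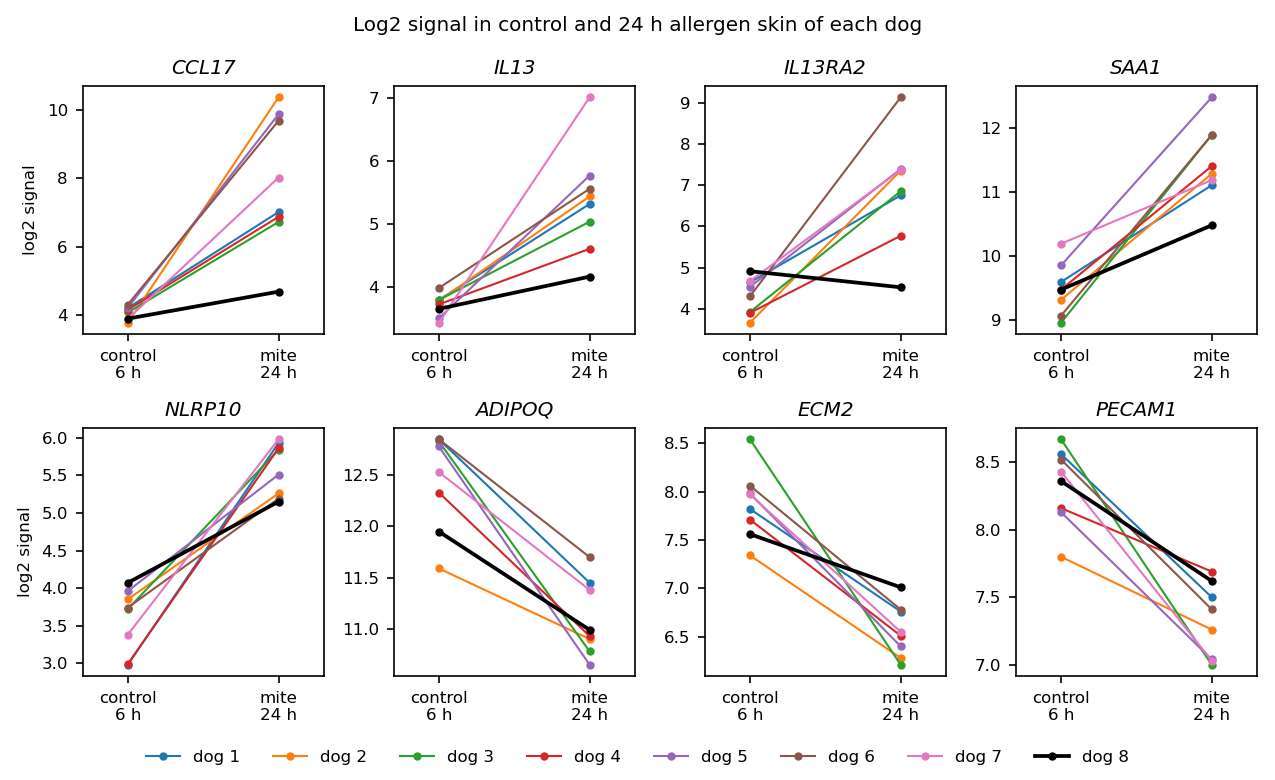
Log2 signal (y axis, a separate scale in each panel) of 8 genes in the control biopsy and the 24 h allergen biopsy, with 1 line per dog and dog 8 in black. CCL17, IL13, SAA1 and NLRP10 were higher at 24 h in 8 of 8 dogs and ADIPOQ, ECM2 and PECAM1 were lower in 8 of 8, while IL13RA2 was higher in 7 of 8.

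Among 21 linked acute phase and early inflammatory genes 7 rose and none fell, and 20 of the 21 changes were above 0 (median 0.64). SAA1, the acute phase protein serum amyloid A, read 8.96, 9.47 and 10.19 in control skin and 10.48, 11.35 and 12.49 at 24 h. The groups did not overlap (change 1.99, SE 0.34, adjusted p = 0.000614). TNFAIP6, a hyaluronan-binding protein made under inflammation, read 6.14, 7.65 and 8.37 in control skin and 6.75, 9.78 and 10.40 at 24 h (change 1.92, SE 0.36, adjusted p = 0.00148). It was higher in 7 dogs and lower in dog 8. CCL19, which guides dendritic cells and naive T cells through CCR7, rose by 1.41 (SE 0.21, adjusted p = 0.000157), and CCL13, a monocyte and eosinophil attractant, rose by 0.95 (SE 0.18, adjusted p = 0.00153), each in 8 of 8 dogs.

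Rises among 15 linked endothelial and adhesion genes numbered 4, all molecules by which leukocytes attach to vessel walls, and 3 of these, ICAM1, SELP and ITGA4, were named after their values were seen. ICAM1 rose by 0.76, the endothelial selectin SELE by 0.83 and SELP, P-selectin, by 1.07, and ITGA4, the leukocyte integrin chain that binds VCAM1, rose by 0.47 (limma adjusted p 0.0194 to 0.0318). With no dog block 1 of the 4 rises was left, and with the muscle-rich arrays left out 2. None was left with the actin covariate, each array's 3' minus 5' difference for 1 pair of beta-actin controls. Leaving out dog 4, 5 or 7 left 2, 0 and 1. In the authors' deposited table VCAM1 (-1.0-fold, p = 0.966) and ICAM2 (1.0-fold, p = 0.925), which have no linked probe set, did not pass. SELE lost its call without dog 3 (adjusted p = 0.0725), dog 5 (adjusted p = 0.0707) or dog 7 (adjusted p = 0.0845). The cytokine IL6 and the monocyte attractant CCL2 varied widely between dogs. IL6 differences ran from -0.13 in dog 2 to 4.72 in dog 7 (change 1.60, SE 0.55, adjusted p = 0.0724). CCL2 was higher in 8 of 8 dogs, by 0.07 to 2.45 (change 1.12, SE 0.44, adjusted p = 0.131).

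Markers of leukocytes gave scattered rises. The T cell receptor chain CD3D read 3.92, 4.45 and 4.92 in control skin and 5.03, 5.94 and 7.62 at 24 h, without overlap (change 1.54, SE 0.27, adjusted p = 0.000782). The other 9 of 10 linked T cell markers did not pass, among them the costimulatory receptor CD2 (change 0.50, adjusted p = 0.125) and the related chain CD3G (change 0.49, adjusted p = 0.164). The mean of all 10 T cell markers was nevertheless higher in 8 of 8 dogs, from 3.62 to 3.86 in control skin and 3.83 to 4.56 at 24 h. GPR171, a G protein-coupled receptor found on T cells, read 3.24, 4.53 and 5.23 in control skin and 4.91, 6.42 and 7.19 at 24 h (change 1.84, SE 0.25, adjusted p = 6.47e-05), higher in 8 of 8 dogs.

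Of 12 linked cytotoxic genes 2 rose. These were CCL5, a chemokine of activated T and natural killer cells (change 1.51, SE 0.35, adjusted p = 0.00738), and the granzyme GZMA (change 0.63, SE 0.15, adjusted p = 0.00895), both in 8 of 8 dogs. None of 10 linked B cell and plasma cell markers passed (median 0.01).

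Dendritic cell markers gave 3 rises among 18 linked members. BATF3, a transcription factor that mouse cross-presenting dendritic cells need, read 5.26, 6.07 and 6.56 in control skin and 5.32, 7.95 and 9.31 at 24 h (change 1.85, SE 0.27, adjusted p = 0.000166). In dogs 1 to 7 it was higher by 1.58 or more and dog 8 stayed at its control value (-0.03). IDO1, a tryptophan-degrading enzyme induced by interferon, rose by 1.18 (SE 0.27, adjusted p = 0.00615), and the lectin CD209 rose by 1.03 (SE 0.24, adjusted p = 0.00691). The macrophage gene AIF1 rose by 0.84 (SE 0.23, adjusted p = 0.0225), the 1 of 10 linked macrophage markers to do so, and lost its call without any 1 of dogs 2 to 6 (adjusted p 0.0548 to 0.0919). FCGR3A, an Fc receptor of neutrophils, macrophages and natural killer cells, rose by 1.34 (SE 0.22, adjusted p = 0.000516) in 8 of 8 dogs. In the authors' deposited table the passing members, all up, were 1 of 21 macrophage markers and 3 of 21 dendritic cell markers. The dendritic cell count was 5 without dog 1, and the macrophage count was 4 without dog 1 and with array weights, 3 after quantile normalization or with centred arrays, and 2 without the 24 h array of dog 5.

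Mast cell genes did not move as 1 group. Of 8 linked markers, CPA3, a mast cell carboxypeptidase, rose by 0.84 (SE 0.24, adjusted p = 0.0272) and ENPP3, an ectoenzyme of mast cells and basophils, by 0.54 (SE 0.16, adjusted p = 0.0314). KIT, the stem cell factor receptor of mast cells and melanocytes, fell by 0.41 (SE 0.10, adjusted p = 0.0136), a call that sat at an adjusted p of 0.05 without dog 3. CPA3 lost its call without dog 2 (adjusted p = 0.0781), dog 3 (adjusted p = 0.0774) or dog 6 (adjusted p = 0.117), and ENPP3 without any 1 of dogs 1, 4, 5, 7 and 8 (adjusted p 0.0533 to 0.0808).

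Interferon-induced genes rose in part. Of 26 linked members 5 rose and 1 fell (median 0.28). CXCL10, a chemokine for T cells that bear CXCR3, read 5.00, 6.25 and 7.24 in control skin and 6.76, 7.73 and 9.27 at 24 h, higher in 8 of 8 dogs (change 1.85, SE 0.41, adjusted p = 0.0049). The guanylate-binding protein GBP1 rose by 1.64 (SE 0.27, adjusted p = 0.000454). The immunoproteasome subunits PSMB8 and PSMB9, which trim peptides for MHC class I, rose by 1.11 (SE 0.19, adjusted p = 0.000543) and 1.09 (SE 0.20, adjusted p = 0.00147). The antiviral MX1 did not pass (change 0.70, SE 0.28, adjusted p = 0.132). ISG20, an RNA exonuclease named after its value was seen, fell by 0.98 (SE 0.28, adjusted p = 0.0269), and lost its call without dog 1, 5, 7 or 8 (adjusted p 0.0524 to 0.0774).

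The interferon gamma gene itself did not pass. IFNG read 2.83 to 3.30 in control skin and 3.00 to 3.44 at 24 h (change 0.01, SE 0.07, adjusted p = 0.953). The constitutive proteasome subunits PSMA3 and PSMB2 rose by 0.31 (SE 0.06, adjusted p = 0.00148) and 0.28 (SE 0.08, adjusted p = 0.0292). PSMA3 was above every control, and PSMB2 lost its call without dog 2, 3, 4, 6 or 7 (adjusted p 0.0593 to 0.101). In the authors' deposited table the antigen processing and proteasome list had 13 of 41 genes up, among which the MHC class II chaperone CD74 was 2.3-fold up (p = 0.013) and the proteasome activator PSME2 1.8-fold up (p = 0.002).

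Innate receptors and cell death genes contained 2 of the largest rises. Of 33 linked Toll and NOD receptors, gasdermins and caspases 4 rose and none fell, while the median was -0.02. NLRP10, a NOD-like protein of keratinocytes, read 2.98, 3.73 and 4.07 in control skin and 5.15, 5.67 and 5.98 at 24 h. The groups were more than 1 log2 unit apart, and the change was 2.00 (SE 0.24, adjusted p = 2.95e-05). GSDMC, an epithelial gasdermin that can form membrane pores, read 3.68, 4.18 and 4.51 in control skin and 4.79, 6.55 and 7.38 at 24 h, again without overlap (change 2.02, SE 0.29, adjusted p = 0.000136). CASP4, an inflammatory caspase, rose by 1.09 (SE 0.27, adjusted p = 0.0108) and CARD9, an adaptor of fungal lectin receptors, by 0.49 (SE 0.14, adjusted p = 0.0236). CASP4 lost its call without dog 3 (adjusted p = 0.0618), and CARD9 without dog 1 (adjusted p = 0.0526), dog 2 (adjusted p = 0.0668) or dog 6 (adjusted p = 0.0876).

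The calgranulins, calcium-binding alarmins of neutrophils and activated keratinocytes, were unequal between dogs. S100A8 read 9.14, 10.79 and 11.65 in control skin and 9.98, 12.19 and 12.76 at 24 h (change 1.13, SE 0.33, adjusted p = 0.0305). S100A9 read 6.73, 8.62 and 9.81 in control skin and 7.66, 9.92 and 12.15 at 24 h (change 1.54, SE 0.48, adjusted p = 0.0463). Dogs 2 to 8 were higher and dog 1 was lower for both, at -1.16 and -1.52, and S100A12 behaved alike without passing (change 1.09, SE 0.48, adjusted p = 0.184, dog 1 at -2.40). S100A8 lost its call without any 1 of dogs 2 to 6 (adjusted p 0.0574 to 0.129), and S100A9 without any 1 of dogs 2 to 8 (adjusted p 0.0576 to 0.16). Neither passed without the 24 h array of dog 5.

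Cytokines of other T helper arms did not pass. IL17A, IL22 and IFNG were among the dim signals named above, for which a miss does not show that there was no response. Of 23 linked T helper 1, 17 and 22 genes 2 rose (median 0.01), the interleukin 18 inhibitor IL18BP by 1.39 (SE 0.27, adjusted p = 0.00192) and the receptor chain IL18RAP by 0.62 (SE 0.16, adjusted p = 0.0138). IL18RAP lost its call without dog 4 (adjusted p = 0.0539) or dog 7 (adjusted p = 0.0639). IL17A read 2.45 to 2.81 in control skin and 2.48 to 2.95 at 24 h (change 0.05, adjusted p = 0.77), and IL22 differed by 0.22 (adjusted p = 0.22). Of 12 linked interleukin 1 and interleukin 36 genes, the receptor antagonist IL1RN alone rose, by 0.24 (SE 0.07, adjusted p = 0.0359), and it lost its call without dog 1, 2, 3, 4 or 7 (adjusted p 0.0702 to 0.102).

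Of 25 linked itch mediators and receptors 2 rose (8%, against 3.63% of all linked genes, median -0.05). Of these, PLA2G4A, the phospholipase that frees arachidonic acid, read 7.19, 7.29 and 7.53 in control skin and 7.37, 7.70 and 7.91 at 24 h, higher in 8 of 8 dogs (change 0.33, SE 0.06, adjusted p = 0.00194). The itch cytokine OSM (change 0.12, adjusted p = 0.415), also a dim signal, and its receptor OSMR (change 0.43, adjusted p = 0.244) did not pass. In JAK-STAT signalling, the STAT5 feedback inhibitor CISH rose by 0.63 (SE 0.12, adjusted p = 0.00196) and was above every control, while SOCS5, an inhibitor of IL4 receptor and EGF receptor signalling, fell by 0.46 (SE 0.07, adjusted p = 0.000323) in 8 of 8 dogs.

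Of 26 linked respiratory chain genes 25 were higher at 24 h and 5 rose (median 0.17), among them NDUFS3 of complex I (0.49), UQCRQ of complex III (0.34) and COX8A of complex IV (0.28). The count of 5 depended on the arrays used, at 2 with the muscle-rich arrays left out, 3 with no dog block, 8 with centred arrays, 10 without the 24 h array of dog 5 and 13 with array weights. It was 2 without dog 2 or 3 and 3 without dog 6 or 7. Of 21 linked cell cycle genes 3 rose, the replication genes MCM4 (0.39), PCNA (0.37) and GINS2 (0.24), with a median of 0.14, and 1 passed without the muscle-rich arrays. All 8 linked cholesterol synthesis genes were higher and 3 rose, EBP by 0.54, DHCR7 by 0.41 and IDI1 by 0.29. Without dog as a block none of these 3 passed (limma adjusted p = 0.125, 0.174 and 0.323). Without single dogs UQCRQ, MCM4, GINS2, DHCR7 and IDI1 lost their calls, with adjusted p between 0.0516 and 0.135. These were dogs 2, 3 and 5 for UQCRQ, dogs 2, 3 and 4 for MCM4, dogs 2, 3, 4, 7 and 8 for GINS2, dogs 3 and 7 for DHCR7, and dogs 1, 3, 4, 6, 7 and 8 for IDI1.

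**Figure D3:**
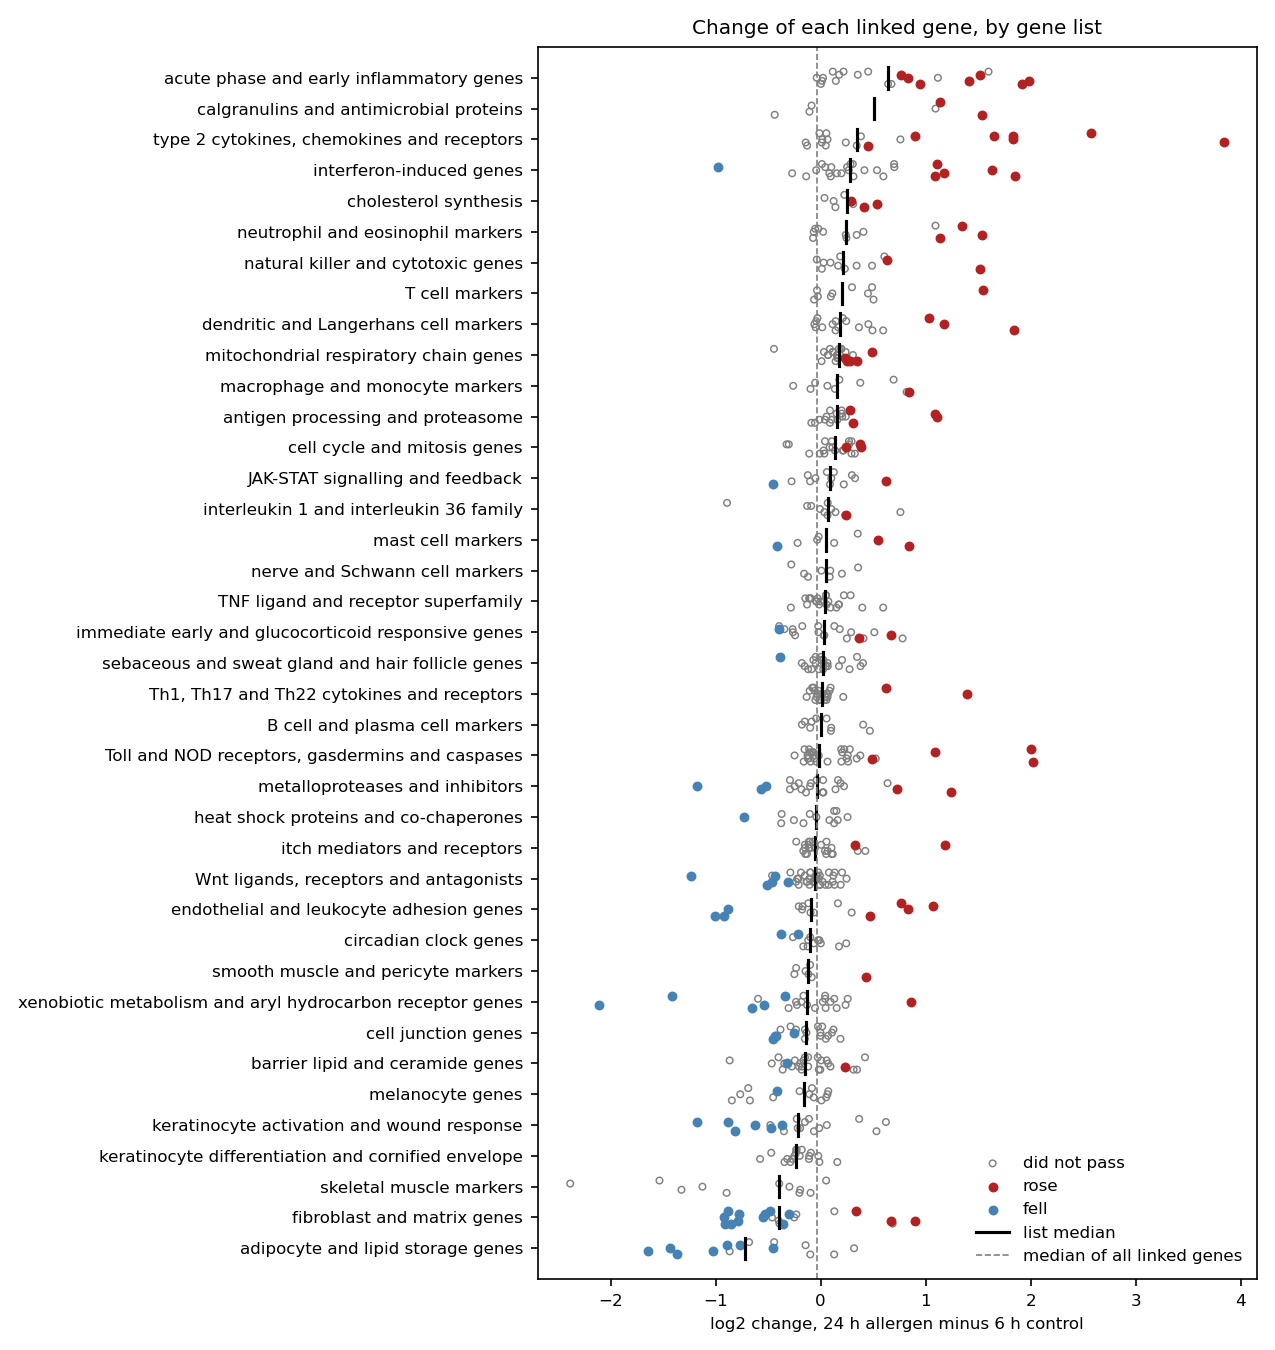
The log2 change (x axis, 24 h allergen minus 6 h control) of each linked gene in 39 gene lists (rows), with rises in red, falls in blue, genes that did not pass as open circles, the list median as a black bar and the median of all linked genes as a dashed line. Acute phase genes have the highest median, 0.64, and adipocyte genes the lowest, -0.72.

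Adipocyte and lipid storage genes were lower at 24 h. Of 14 linked members 7 fell and none rose (median -0.72), and the mean of all 14 was lower in 8 of 8 dogs. LEP, the fat hormone leptin, read 5.66, 7.68 and 8.01 in control skin and 4.77, 5.67 and 6.30 at 24 h (change -1.65, SE 0.33, adjusted p = 0.00262). ADIPOQ, adiponectin, read 11.59, 12.65 and 12.85 in control skin and 10.65, 10.96 and 11.70 at 24 h (change -1.37, SE 0.28, adjusted p = 0.00251). Both were lower in every dog although the groups overlapped. LPL, which frees fatty acids from lipoproteins, fell by 1.44 (SE 0.40, adjusted p = 0.0233), the fatty acid receptor CD36 by 1.02 (SE 0.20, adjusted p = 0.00236) and the lipid droplet protein CIDEA by 0.89 (SE 0.22, adjusted p = 0.0112). The peroxisomal fatty acid transporter ABCD2 fell by 1.52 (SE 0.34, adjusted p = 0.00625).

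Since fat and muscle lie beneath the dermis, the muscle markers are given beside this group. Of 11 linked muscle markers none passed, their median was -0.39, and 10 were lower. The myosin MYH2 had the largest difference (change -2.38, SE 1.75, adjusted p = 0.474) and ran from -9.29 in dog 7 to 9.68 in dog 2. Without the 9 muscle-rich arrays 4 of the 11 muscle markers fell, so this setting did not remove the muscle difference. Among them were MYH2 (-3.52, limma adjusted p = 0.00702) and the troponin TNNC2 (-1.96, adjusted p = 0.0199). In the same fit LEP changed by -1.72 (adjusted p = 0.0101), ADIPOQ by -1.53 (adjusted p = 0.0099) and CD36 by -0.98 (adjusted p = 0.0169). LPL, at -1.48, no longer passed (adjusted p = 0.0577). LPL also lost its call without dog 1, 3, 4, 5 or 7 (adjusted p 0.0554 to 0.0732), and CIDEA without dog 3 (adjusted p = 0.057). Of the 7 falls 3 were left without dog 3. In the authors' deposited table the adipocyte list had 10 of 29 genes down and none up, and the hormone-sensitive lipase LIPE was 1.8-fold down (p = 0.001) and GPD1, which supplies glycerol phosphate, 2.2-fold down (p = 0.019).

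Fibroblast and matrix genes held the most falls of the 39 lists. Of 21 linked members 11 fell and 3 rose (median -0.40). ECM2, an extracellular matrix protein, read 7.34, 7.89 and 8.54 in control skin and 6.21, 6.53 and 7.01 at 24 h, without overlap (change -1.31, SE 0.15, adjusted p = 1.76e-05). CLEC3B, tetranectin, which binds plasminogen, read 9.07, 9.40 and 9.86 in control skin and 7.35, 8.16 and 8.63 at 24 h, also without overlap (change -1.32, SE 0.22, adjusted p = 0.000572). Neither is on the list; both were among the 14 largest falls. Of the list, the basement membrane collagen COL15A1 fell by 0.78 (SE 0.11, adjusted p = 6.84e-05), the wound glycoprotein TNC by 0.88 (SE 0.14, adjusted p = 0.000358), ASPN, asporin, by 0.85 (SE 0.14, adjusted p = 0.000378), and the collagen cross-linking enzyme LOX by 0.53 (SE 0.11, adjusted p = 0.00251).

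The matrix changes were not all in 1 direction. Its members COL6A1 (0.34), EMILIN1 (0.67) and periostin (0.90), rose, and COL6A5, a type VI collagen chain found in skin, rose by 1.64 (SE 0.50, adjusted p = 0.0393), with differences from 0.02 in dog 8 to 4.94 in dog 6. COL6A5 lost its call without dog 2, 4, 5, 6 or 7 (adjusted p 0.0581 to 0.134). The type I collagen chain COL1A2 fell by 0.55 (SE 0.14, adjusted p = 0.0125), and lost its call without dog 5 (adjusted p = 0.0531) or dog 7 (adjusted p = 0.0506). The 3 rises became 1 without the 24 h array of dog 5, without the muscle-rich arrays or with the actin covariate. In the authors' deposited table the fibroblast and matrix list had 15 of 44 genes down, and the collagen COL3A1 was 1.9-fold down (p = 0.02), thrombospondin 2, THBS2, 2.4-fold down (p = 0.008), tenascin X, TNXB, 2.2-fold down (p = 0.002), and dermatopontin, DPT, 2.2-fold down (p = 0.004).

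Among proteases and their inhibitors, 3 of 23 linked genes fell and 2 rose. MMP3, a stromelysin that cuts many matrix proteins, read 3.20, 3.69 and 5.90 in control skin and 2.48, 2.68 and 3.85 at 24 h, lower in 8 of 8 dogs (change -1.18, SE 0.22, adjusted p = 0.00117). MMP16 fell by 0.57 (SE 0.12, adjusted p = 0.00454) and ADAM9 by 0.52 (SE 0.10, adjusted p = 0.00249). The aggrecan-cleaving ADAMTS4 rose by 0.72 (SE 0.14, adjusted p = 0.00177), and the metalloprotease inhibitor TIMP1 by 1.24 (SE 0.30, adjusted p = 0.0102). TIMP1 was named after its value was seen. Without the muscle-rich arrays 1 of these 2 rises was left, that of ADAMTS4 (0.70, adjusted p = 0.0126).

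Endothelial and adhesion genes split. Of 15 linked members the 4 leukocyte adhesion genes above rose, and 3 fell. PECAM1, the junction molecule of endothelium, read 7.80, 8.39 and 8.67 in control skin and 7.00, 7.33 and 7.69 at 24 h (change -1.01, SE 0.14, adjusted p = 0.000101). ANGPT1, a ligand of the endothelial receptor TEK, read 4.77, 5.33 and 5.69 in control skin and 4.16, 4.32 and 4.62 at 24 h (change -0.92, SE 0.13, adjusted p = 9.25e-05). ITGB1, the integrin beta chain shared by most matrix receptors, read 8.97, 9.26 and 9.38 in control skin and 7.76, 8.46 and 8.62 at 24 h (change -0.89, SE 0.12, adjusted p = 6.47e-05). For all 3 the groups were separate and each dog was lower. In the authors' deposited table the list had 5 of 32 members down and none up, and the receptor TEK was 1.7-fold down and endomucin, EMCN, 1.8-fold down.

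None of 18 linked keratinocyte differentiation and cornified envelope genes passed, although 17 were lower (median -0.23). Whole-skin biopsies do not place this or the changes below in the epidermis. Of 19 linked keratinocyte activation and wound response genes 6 fell and none rose (median -0.22). MMP3 and TNC were among them and are also counted in the protease and matrix lists above. The others included ITGA2, a collagen-binding integrin chain, which fell by 0.82 (SE 0.12, adjusted p = 0.000163), the basement membrane laminin chain LAMA3, by 0.47, and the hemidesmosome integrin ITGB4, by 0.37. Of 19 linked junction genes 4 fell, among them the desmosomal PKP2 by 0.46, the tight junction protein CLDN1 by 0.43 and the adherens junction protein CTNNB1 by 0.25. CLDN1 read 7.39, 7.46 and 7.83 in control skin and 6.41, 7.18 and 7.37 at 24 h, without overlap. Only 1 of the 4 junction falls was left without the 24 h array of dog 5, without dog as a block, or without dog 2, 5 or 6, and 2 without dog 3, without the muscle-rich arrays or with the actin covariate. The calls of CLDN1 (without dog 2, 3, 4, 5 or 6) and CTNNB1 (without dog 1, 2, 3, 5 or 6) were lost on leaving out single dogs, with limma adjusted p between 0.0505 and 0.0832.

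Of 42 linked Wnt ligands, receptors and antagonists 5 fell and none rose (median -0.06). That was 11.9% fallen, against 7.22% of all linked genes, whose median was -0.03. FRZB, a secreted Wnt antagonist, read 9.89, 11.19 and 11.92 in control skin and 9.29, 9.81 and 10.35 at 24 h, lower in 8 of 8 dogs (change -1.24, SE 0.30, adjusted p = 0.0102). The nuclear partner of beta-catenin TCF7L2 fell by 0.52 (SE 0.12, adjusted p = 0.00788), the R-spondin receptor LGR4 by 0.43 (SE 0.11, adjusted p = 0.0104) and the co-receptor LRP6 by 0.31 (SE 0.08, adjusted p = 0.0114). LRP6 lost its call without dog 4 (adjusted p = 0.0612). WISP3, a matricellular protein of the CCN family, fell by 1.33 (SE 0.32, adjusted p = 0.00906). It is not on the list and was among the 14 largest falls.

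Of 23 linked genes of xenobiotic metabolism 5 fell and 1 rose. CYP2A13, a cytochrome P450 known from human airways, read 5.24, 6.56 and 7.59 in control skin and 3.31, 4.35 and 6.80 at 24 h (change -2.11, SE 0.45, adjusted p = 0.00391). FMO2, a flavin monooxygenase, read 6.42, 7.23 and 8.15 in control skin and 4.27, 6.02 and 7.41 at 24 h (change -1.42, SE 0.28, adjusted p = 0.0023). Both were lower in dogs 1 to 7 and higher in dog 8. The sulfotransferase SULT1A1 fell by 0.54 (SE 0.13, adjusted p = 0.00995), whereas the glutathione transferase GSTA3 rose by 0.86 (SE 0.19, adjusted p = 0.00547). GSTA3 did not pass without dog as a block (adjusted p = 0.187). Of the 5 falls 3 were left without the 24 h array of dog 5, with no dog block, with the actin covariate, with the muscle-rich arrays left out, or without dog 3 or 5.

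The remaining large falls belong to no 1 group. GLRB, a chain of the glycine receptor, read 5.59, 6.44 and 7.54 in control skin and 4.29, 5.37 and 5.57 at 24 h (change -1.40, SE 0.27, adjusted p = 0.00194), without overlap. DEPTOR, an inhibitor of mTOR, fell by 1.15 (SE 0.21, adjusted p = 0.00107) in 8 of 8 dogs. LMCD1, a LIM domain protein, fell by 1.34 (SE 0.32, adjusted p = 0.00864), with dog 2 higher by 0.69 and dog 7 lower by 3.40. Among the rises, LOC611632, annotated as ceruloplasmin-like in the authors' deposited table, changed by 2.20 (SE 0.60, adjusted p = 0.0211), from -0.01 in dog 1 to 4.56 in dog 5. It lost its call without dog 2 (adjusted p = 0.0706), dog 5 (adjusted p = 0.0843) or dog 7 (adjusted p = 0.052).

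Since the control was taken at another hour after patching, clock, stress and immediate early genes are given as well. Of 13 linked clock genes 2 fell, CSNK1E by 0.38 (adjusted p = 0.0464) and PER3 by 0.21 (adjusted p = 0.0391), and each lost its call without most single dogs (adjusted p 0.0511 to 0.16). The exceptions were dog 4 for CSNK1E and dogs 6 and 7 for PER3. The share of clock genes that fell was 15.4%, against 7.22% of all linked genes. Neither passed without the 24 h array of dog 5. Of 20 linked immediate early and glucocorticoid responsive genes the growth arrest gene BTG2 rose by 0.67 (SE 0.13, adjusted p = 0.00251), IER3 rose by 0.37 (adjusted p = 0.0256) and the glucocorticoid-induced factor KLF9 fell by 0.40 (adjusted p = 0.018). IER3 lost its call without dog 3, 4, 5, 7 or 8 (adjusted p 0.0522 to 0.12) and KLF9 without dog 1 (adjusted p = 0.0734). Of 13 linked heat shock genes 1 fell (7.69%, near the 7.22% of all linked genes). This was the chaperone HSPH1, by 0.73 (SE 0.20, adjusted p = 0.0202), and it lost its call without dog 7 (adjusted p = 0.0514) or dog 8 (adjusted p = 0.0844).

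No gene passed among 24 linked members of the TNF ligand and receptor superfamily and 8 nerve markers. Melanocyte markers gave KIT alone among 14, and their pigment genes differed between dogs. The tyrosinase gene TYR read 4.23 to 7.59 in control skin and 3.78 to 7.99 at 24 h, with differences from -3.81 in dog 1 to 0.52 in dog 4 (change -0.77, SE 0.38, adjusted p = 0.249). Among 23 gland and hair follicle genes the hair stem cell factor LHX2 fell by 0.39 (adjusted p = 0.0315), and among 27 barrier lipid genes the ceramide synthase CERS6 fell by 0.32 (adjusted p = 0.0491) and the sphingomyelinase SMPD1 rose by 0.23 (adjusted p = 0.0412). LHX2 lost its call without dog 2, 4, 5 or 6, CERS6 without any 1 of dogs 1 to 5, and SMPD1 without any dog but 6 (adjusted p 0.0564 to 0.143).

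The 8 dogs differed in the size of the response. For CCL17 the differences were 2.82, 6.60, 2.64, 2.72, 5.66, 5.38, 4.14 and 0.79 in dogs 1 to 8. Each of the 7 type 2 genes that rose had its lowest difference in dog 8, where their mean was 0.25 against 1.06 to 2.91 in the other dogs. Dog 8 had the lowest mean in 8 of 12 sets of risen list members, the sets of at least 3. It was still above its own control for 344 of the 382 linked genes that rose. Dog 1 was above its control for 311 of these and dog 5 for 330, against 357 to 379 in the remaining dogs. Over all 382 genes the median difference was lowest in dog 1 (0.19), then in dog 8 (0.29), and was 0.33 to 0.54 in the others. For falls dog 8 had the smallest mean fall in 4 of 8 sets, more than any other dog, and its mean of the xenobiotic set was above its control (0.32). Over all linked genes that fell, the median difference was smallest in dog 2 (-0.32), with dog 8 at -0.40. The mean over the 7 adipocyte genes that fell was -0.36 in dog 8 and -1.72 to -0.52 in the others. Dog 1, lowest for the calgranulins, had the largest NLRP10 difference, 2.94, and a mean of 1.64 for the risen type 2 genes.

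**Figure D4:**
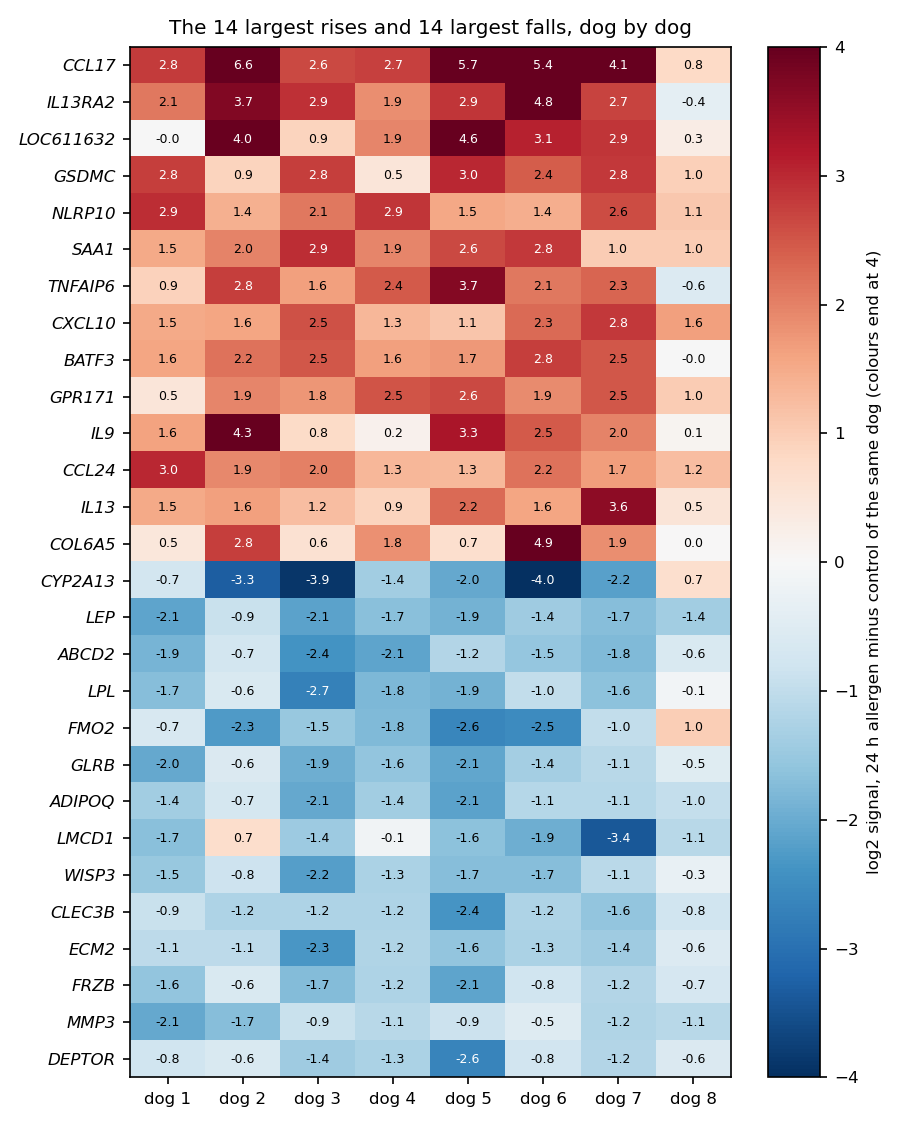
The log2 difference between the 24 h allergen biopsy and the control of the same dog (colour and printed number) for the 14 largest rises and 14 largest falls (rows) in each of the 8 dogs (columns). Dog 8 was at or below 0 for IL13RA2, TNFAIP6 and BATF3 and above 0 for CYP2A13 and FMO2.

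Biopsies were also taken 6 h and 48 h after the mite patch. The comparisons with them share the 24 h arrays with the one above and each rests on its own test in the same limma model. From 6 h to 24 h after the allergen 3621 probe sets were higher (8.45%) and 3795 lower (8.85%), and from 24 h to 48 h 1017 were higher (2.37%) and 79 lower (0.184%). Muscle-rich arrays were 5 of 8 at 6 h, 2 of 8 at 24 h and 0 of 8 at 48 h, against 2 of 8 in the control. The alternatives for this were chosen after seeing the data. Without the muscle-rich arrays 3 arrays were left at 6 h, 2 of them from dogs with a 24 h array, and limma called 0 probe sets from 6 h to 24 h (4835 at an unadjusted p under 0.05). From 24 h to 48 h it called 191 higher and 16 lower. With the muscle mean as a covariate on all arrays the counts were 1624 higher and 1814 lower from 6 h to 24 h, and 789 and 99 from 24 h to 48 h.

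CCL17 was higher at 24 h than at 6 h by 3.31 (SE 0.58, adjusted p = 0.000404), IL13RA2 by 2.45 (SE 0.35, adjusted p = 8.09e-05), GSDMC by 1.75 (SE 0.29, adjusted p = 0.000288) and NLRP10 by 1.77 (SE 0.24, adjusted p = 5.87e-05). All 4 passed with the muscle covariate (limma adjusted p 0.0009 to 0.00422) and kept their direction without the muscle-rich arrays, at 3.28, 1.93, 1.63 and 1.61, where none passed (adjusted p 0.17 to 0.234). None of these 4 differed from the control at 6 h in limma (changes 0.53, 0.13, 0.27 and 0.24, adjusted p 0.699 to 0.914). CCL24 was already higher than the control at 6 h, by 0.98 (adjusted p = 0.02), and higher again at 24 h than at 6 h, by 0.85 (adjusted p = 0.012). The second of these calls was lost with the muscle covariate (0.67, adjusted p = 0.0916), and both were lost without the muscle-rich arrays (1.43, adjusted p = 0.907, and 0.64, adjusted p = 0.507).

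At 6 h S100A8 (-1.20, adjusted p = 0.0446) and CCL19 (-0.84, adjusted p = 0.0272) were below the control, and at 24 h they exceeded their 6 h level by 2.33 (SE 0.33, adjusted p = 7.21e-05) and 2.25 (SE 0.21, adjusted p = 1.94e-06). SAA1 exceeded its 6 h level by 2.95 (SE 0.34, adjusted p = 1.04e-05). The falls below the control at 6 h did not pass with the muscle covariate (S100A8 -1.17, limma adjusted p = 0.093, and CCL19 -0.75, adjusted p = 0.0754) or without the muscle-rich arrays (-0.54 and -0.19, both adjusted p = 1). The 3 differences from 6 h to 24 h passed with the covariate (2.28, 2.10 and 2.95) and missed without those arrays (1.81, 1.75 and 2.53, adjusted p 0.0784 to 0.191). The activation genes MMP3 and ITGA2 and the junction gene CLDN1 were below the control at 6 h by 0.52 to 0.99. None of the 3 differed between 6 h and 24 h in limma (differences -0.30 to 0.21, adjusted p 0.0909 to 0.583). At 6 h MMP3 and CLDN1 passed with the covariate and ITGA2 did not (adjusted p = 0.0527), and none of the 3 passed without the muscle-rich arrays (MMP3 -0.89, CLDN1 -0.47 and ITGA2 -0.46, adjusted p = 1). CYP2A13, FMO2, CLEC3B and LEP were lower at 24 h than at 6 h by 1.05 to 2.90 (adjusted p 1.85e-05 to 0.0303). They passed with the covariate as well, and without the muscle-rich arrays they were lower by 1.07 to 1.81 and did not pass (adjusted p 0.128 to 0.426).

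From 24 h to 48 h 4 of 10 linked T cell markers and 7 of 18 linked dendritic cell markers were higher and none was lower (medians 0.35 and 0.50), of which 1 and 2 passed without the muscle-rich arrays. CD3D was higher at 48 h than at 24 h by 1.39 (SE 0.27, adjusted p = 0.00677) and CD209 by 1.37 (SE 0.24, adjusted p = 0.00369), and S100A9 by 2.45 (SE 0.48, adjusted p = 0.00677). These 3 passed without the muscle-rich arrays as well (1.41, 1.38 and 2.36, limma adjusted p 0.0329 to 0.047). GSDMC (0.06, SE 0.29, adjusted p = 0.957), NLRP10 (0.41, SE 0.24, adjusted p = 0.484) and SAA1 (0.49, SE 0.34, adjusted p = 0.581) gave no such difference, and a miss does not show that their levels were equal.

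**Figure D5:**
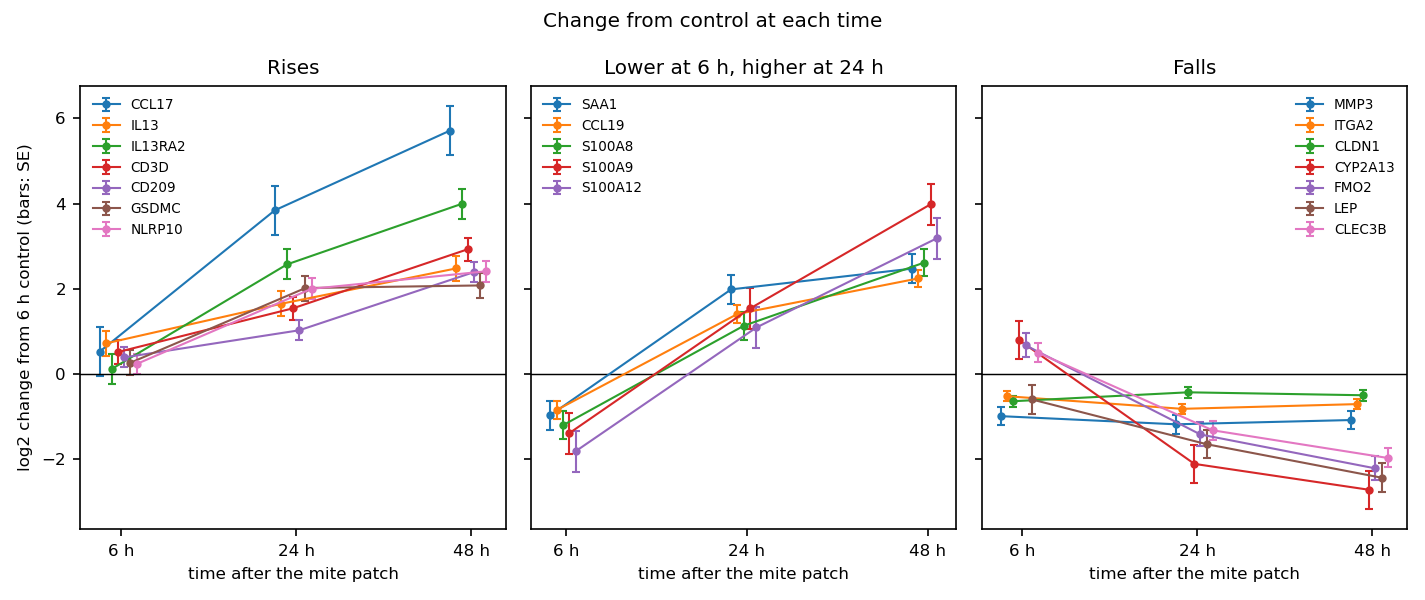
The log2 change from the 6 h control (y axis, bars are SE of the limma model, 8 dogs) at 6 h, 24 h and 48 h after the mite patch (x axis), in 3 panels of genes. At 24 h CCL17 stood at 3.84 and CYP2A13 at -2.11, and SAA1, CCL19 and the calgranulins were below 0 at 6 h and above 0 at 24 h.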

How the data were processed

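The authors deposited log2 signals of 43035 probe sets on 32 arrays of biotin-labelled cDNA, and a gene table with a signed fold score, a ratio of 24 h to control written as negative when lower, and an adjusted p-value per time. No source used here gives the authors' summary and normalization, the array design or a genome build. The 175 array controls were left out. limma 3.58.1 in R 4.3.3 fitted all 4 groups with the dog as a fixed block (21 residual degrees of freedom). Tests were 2-sided with Benjamini-Hochberg adjustment over 42860 probe sets and no filter on dim ones. The labels name the dog of each biopsy, which gives the pairing. Deviations of the 8 control and 24 h pairs correlated by 0.23 on average (-0.14 to 0.70, 6 above 0.1).

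A gene was linked when its 3 folds and 3 p-values equalled those of 1 probe set in a linear model without the dog, within 0.05 and 0.001. This held for 61.4% of the table. Members, lists and tests were chosen with earlier results of these data known. The genes named are the 14 largest rises and falls that passed with the same sign in at least 7 dogs, up to 4 passing and 2 other members per list, and cytokines fixed for the question. ICAM1, SELP, ITGA4, TIMP1, COL6A1, EMILIN1, POSTN, ISG20, LAMA3, ITGB4 and COL1A2 were added after their values were seen. A few named by this rule are not reported here. Whole-array measures were compared by exact permutation over 256 sign changes. The fit was tested on simulated data. Alternatives changed the block, normalization, filters, covariates, arrays and dogs.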

Additional observations from a re-analysis of the deposited data

Results flagged for a closer look

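Among the reported genes, 19 sample values stood apart from the other 7 of their group by Dixon's test, among 254 groups tested, and chance flags about 1 in 20 groups. At 24 h these were the high values of dog 6 for CD3D (7.62), CARD9 (5.09) and the mast cell gene ENPP3 (4.43), and of dog 5 for CISH (6.37) and TCF7L2 (6.90). Dog 5 was low at 24 h for PSMB2 (10.31) and MMP16 (4.70), dog 8 for IL5 (2.47) and dog 3 for GLRB (4.28). In control skin, dog 7 was low for IL22 (2.34), dog 1 for IFNG (2.83) and COX8A (10.35), and dog 4 for HSPH1 (5.62). Control values were high in dog 4 for UQCRQ (11) and in dog 3 for LRP6 (8.24). MMP3 was high in dog 1 both in control skin (5.90) and at 24 h (3.85), and KRT15, a keratin of basal and follicle stem cells, was high in dog 8 in both (10.75 and 10.61).

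Other genes differed between the times after the allergen by limma's test. From 6 h to 24 h the differences were 3.31 for CCL17, 0.93 for IL13, 2.45 for IL13RA2, 2.95 for SAA1, 2.25 for CCL19, 2.33 for S100A8, 2.93 for S100A9, 2.90 for S100A12, 1.03 for CD3D, 1.75 for GSDMC and 1.77 for NLRP10. They were -2.90 for CYP2A13, -2.09 for FMO2, -1.05 for LEP and -1.82 for CLEC3B. From 24 h to 48 h they were 1.42 for IL13RA2, 0.83 for CCL19, 1.49 for S100A8, 2.45 for S100A9, 2.10 for S100A12, 1.39 for CD3D and 1.37 for CD209. Of the 6 h to 24 h differences none passed without the muscle-rich arrays, and with the muscle covariate IL13 did not pass (0.69, adjusted p = 0.181). Of the 24 h to 48 h differences, IL13RA2, CCL19, S100A8 and S100A12 did not pass without the muscle-rich arrays (limma adjusted p 0.0575 to 0.113). CCL19 also missed with the muscle covariate (0.76, adjusted p = 0.0511).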

How the results depend on the processing

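Of the 103 reported genes that passed, 56 passed under all 20 alternatives, 47 lost the call in at least 1 and none reversed. Without the replicate block 2160 probe sets passed, 771 risen and 1389 fallen, and 27 of the 103 genes lost their call, IL9, POSTN, AIF1, ISG20, S100A8, S100A9, CPA3, ENPP3, KIT, LGR4, CLDN1 and KLF9 among them. Centring the arrays on their medians moved all probe sets from a median change of -0.027 to 0.026 and gave 2215 rises, array weights gave 2455 rises, and without the muscle-rich arrays the total was 2325 with 647 rises. That last setting left 6 arrays per group and both arrays in 5 dogs, and 30 of the 103 genes lost their call, IL5, IL9, CASP4, SELE, BTG2, MCM4, LPL, TCF7L2, PKP2, SULT1A1 and COX8A among them. With the muscle mean as a covariate the total was 3409, with 1158 rises and 2251 falls. There 6 of the 103 genes lost their call, POSTN, S100A9, IL1RN, IDI1, PER3 and CSNK1E. With single dogs left out the total was 2131 to 3278, with 717 to 1418 rises and 1414 to 2183 falls. Without dog 3 it was 2131 (717 risen, 1414 fallen), and without dog 7 the rises were 794. The share of rises was 45.6% after quantile normalization, 47.9% on leaving out dog 5's 24 h array and 47.7% with array weights. Between times, in alternatives chosen after seeing the data, the higher and lower counts without the muscle-rich arrays were 0 and 0 from 6 h to 24 h, where 3 arrays were left at 6 h, and 191 and 16 from 24 h to 48 h. With the muscle covariate they were 1624 and 1814 from 6 h to 24 h.

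Reversals were seen in 2 genes that had not passed. KRT5, at -0.022, became 0.030 with centred arrays, 0.021 with array weights, 0.025 without muscle-rich arrays and 0.040 without the 24 h array of dog 5, and ran from -0.053 to 0.019 with single dogs left out, the last without dog 2. IFNG, at 0.012, became -0.002 without muscle-rich arrays, and ran from -0.018 (without dog 7) to 0.053 with single dogs left out, with -0.01 without dog 1 and 0 without dog 3. The causes were not tested. Signal over background was not available, which leaves the size of changes from dim signals uncertain, and the number of arrays limits precision.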

Other observations

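Further leukocyte and antigen presentation genes, named after their values were seen, were higher at 24 h. HLA-DMA, which loads peptides onto MHC class II, rose by 1.31 (SE 0.20, limma adjusted p = 0.000243) from 6.13 ± 0.35 to 7.45 ± 0.64 (SD, 8 dogs), and every 24 h biopsy was above every control. HLA-DRB1, an MHC class II chain, rose by 0.93 (SE 0.21, adjusted p = 0.00617) from 10.35 ± 0.37 to 11.28 ± 0.76. The lymphocyte activation marker CD69 rose by 0.94 (SE 0.20, adjusted p = 0.00424), the B cell and myeloid kinase BTK by 0.98 (SE 0.22, adjusted p = 0.00655) and the leukocyte GTPase RAC2 by 1.07 (SE 0.27, adjusted p = 0.0116), each in 8 of 8 dogs. HSD11B1, which turns inactive cortisone into cortisol, rose by 1.57 (SE 0.17, adjusted p = 1.76e-05) from 7.39 ± 0.28 to 8.96 ± 0.65, also in 8 of 8 dogs. HAS2, a hyaluronan synthase, rose by 0.92 (SE 0.25, adjusted p = 0.0237).

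Several genes of chromatin and RNA processing, likewise named after their values were seen, were lower at 24 h in 8 of 8 dogs. ANKRD11, a chromatin regulator, fell by 1.04 (SE 0.14, limma adjusted p = 7.02e-05) from 6.90 ± 0.23 to 5.85 ± 0.32, and JMJD1C, of the histone demethylase family, by 0.95 (SE 0.16, adjusted p = 0.000544). For both the groups did not overlap. The splicing-associated ACIN1 fell by 0.91 (SE 0.19, adjusted p = 0.00274) and THRAP3 by 0.79 (SE 0.17, adjusted p = 0.00524). No list of such genes was tested here.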
